A study of Mus musculus with 2 samples.

Results

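Bipolar cells of the mouse retina were examined as the nuclei that the authors annotated as bipolar and placed in clusters 3, 4 and 7 of a single-nucleus RNA-sequencing (snRNA-seq) experiment at postnatal day (P) 21. The rule took 647 of 14123 nuclei, of which 641 belonged to the Cre- library and 6 to the Tet tcKO library. Within the Cre- library the 641 nuclei were 8.71% of 7357 nuclei and held 14.9% of the unique molecular identifiers (UMIs, which count captured RNA molecules). Cluster 3 held 202 of them, cluster 4 held 160 and cluster 7 held 279. A further 33 Cre- nuclei carried the bipolar annotation outside these clusters. Whole retinas of strain C57 BL/6J were used for both libraries. The Cre- library, whose genotype label is WT, came from control mice without the Cre transgene, and their Tet alleles are not stated in the labels or methods beyond that. The Tet tcKO library came from mice that carried floxed Tet1, Tet2 and Tet3 alleles together with a Cre-GFP transgene whose driver is active in retinal progenitors and can be mosaic, and the mice were bred to carry 2 copies of it. Each genotype was 1 library made from 2 pools of dissociated nuclei (each of several animals) that the files do not tell apart, so no value below carries a replicate error, and no p-value is given. Intervals are 95% intervals for counting error only. The clusters were formed on the same expression values, so every comparison of a cluster with other nuclei is a description.

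Bipolar cells are the interneurons that carry signals from photoreceptors to amacrine and ganglion cells. ON bipolar cells, which include the rod bipolar cells, receive glutamate through the receptor mGluR6, encoded by Grm6. In darkness mGluR6 signals through the G protein Go and keeps the cation channel TRPM1 closed, and in light the channel opens. GPR179 and nyctalopin, the product of Nyx, hold the complex together at the dendritic tips. OFF cone bipolar cells instead use ionotropic glutamate receptors of the kainate and AMPA types. Otx2 and Isl1 encode homeodomain factors of the lineage, and PKCα, encoded by Prkca, is the usual marker of rod bipolar cells.

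The promoters of the genes that carried the clusters are shown first, because Otx2 and related factors are known to read the letters TAATCC, and LIM-homeodomain factors the letters TAATTA. Windows ran from 250 bases before the start site to 50 bases from it, as given by RefSeq on build GRCm38.p6. Letters were searched on both strands, and TAATTA is its own reverse complement. The windows below are written 5′ to 3′ on the gene's strand with matches in capitals, which read GGATTA where TAATCC lies on the opposite strand. Trpm1 is shown for the match 34 to 29 bases before its upstream start site, Cabp5, a calcium-binding protein of rod bipolar and some cone bipolar cells, for its pair of matches, and Gpr179 as a leading gene with no match.
Trpm1, chr7:64153585-64153884, forward strand: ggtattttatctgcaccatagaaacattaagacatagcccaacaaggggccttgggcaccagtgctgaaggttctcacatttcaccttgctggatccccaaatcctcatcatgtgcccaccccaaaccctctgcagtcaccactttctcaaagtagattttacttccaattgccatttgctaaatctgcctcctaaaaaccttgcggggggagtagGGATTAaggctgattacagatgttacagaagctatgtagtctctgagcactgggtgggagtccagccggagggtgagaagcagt
Cabp5, chr7:13397905-13398204, forward strand: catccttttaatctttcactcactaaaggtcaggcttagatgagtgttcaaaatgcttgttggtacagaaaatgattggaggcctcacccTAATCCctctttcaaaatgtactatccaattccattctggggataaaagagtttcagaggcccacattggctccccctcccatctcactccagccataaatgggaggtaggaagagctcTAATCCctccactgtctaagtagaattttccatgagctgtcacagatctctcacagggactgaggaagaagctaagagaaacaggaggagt
Gpr179, chr11:97352307-97352606, reverse strand: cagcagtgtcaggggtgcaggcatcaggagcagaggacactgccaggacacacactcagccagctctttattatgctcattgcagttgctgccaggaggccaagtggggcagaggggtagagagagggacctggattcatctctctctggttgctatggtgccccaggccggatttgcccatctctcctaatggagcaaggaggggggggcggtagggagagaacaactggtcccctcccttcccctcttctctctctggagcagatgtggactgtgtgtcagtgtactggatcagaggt
Of the 25 genes of the bipolar marker list, 21 had a window, and 6 of the 21 held either set of letters in at least 1 window. These were Trpm1, Otx2, Isl1 and Cabp5 for TAATCC, and Otx2, Samsn1 and Pcp2 for TAATTA. The share was 28.6% of genes (interval 11.3% to 52.2%), against 13.6% of 27025 genes in the table. With so few genes the interval held the share over all genes, and a match describes letters, not a bound site.

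Depth differed among the clusters. The median nucleus held 3959 UMIs in cluster 3, 2155 in cluster 4 and 1169 in cluster 7, against 1074 in the other Cre- nuclei. After each nucleus was drawn to 500 UMIs, the median number of genes was 419, 421 and 421, so complexity at equal depth was alike. The 13 mitochondrial mRNAs took 2.78% to 3.10% of UMIs in the clusters and 7.46% in rods. Pooled, the clusters held 1717546 UMIs, so a level of 10 CPM (UMIs of a gene per 1000000 UMIs of the population) rested on 17.2 UMIs, but on only 4.11 and 4.08 UMIs in clusters 4 and 7 alone. A single Cre- barcode also occurred in the Tet tcKO library, and it was not among the 641 nuclei.

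Trpm1, the channel of the ON response, was higher in each of the 3 clusters than in any other class. Its level was 1147 CPM in cluster 3, 2182 CPM in cluster 4 and 2722 CPM in cluster 7. It was 815 CPM in Müller glia, 785 CPM in rods, 538 CPM in cones, 246 CPM in horizontal cells, 227 CPM in amacrine cells and 109.7 CPM in retinal ganglion cells (RGCs). The 3 clusters stood highest, and the interval of cluster 3 (1078 to 1219 CPM) lay above those of all 6 other classes, each taken whole. It overlapped that of Müller glia cluster 14 taken alone (806 to 1101 CPM). Pooled, Trpm1 was 1768 CPM against 634 CPM in all other Cre- nuclei, a log2 ratio of 1.48 (interval 1.42 to 1.54), and the clusters held 32.8% of the library's Trpm1 UMIs. The gene spans chr7:63803583-63922019 (GRCm39) on the forward strand, with no other gene of the count matrix overlapping it.

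**Figure D1:**
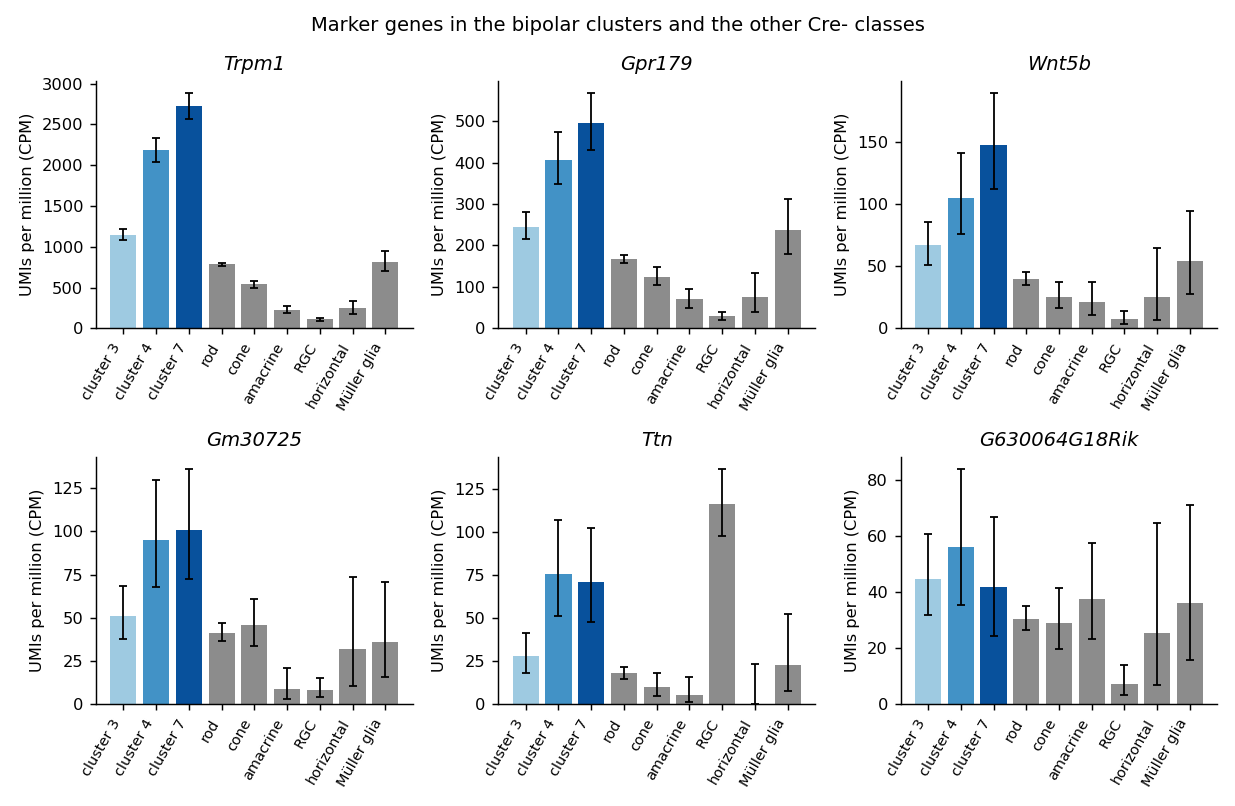
Levels of 6 marker genes in CPM (vertical axes) in the 3 bipolar clusters (blue bars) and 6 other annotated classes (grey bars) of the Cre- library, with 95% intervals for counting error from 1 library. Trpm1 reached 2722 CPM in cluster 7 and 815 CPM in Müller glia, while Ttn was higher in RGCs (116 CPM) than in any of the 3 clusters.

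Gpr179, the orphan receptor that anchors the cascade, was 246 CPM in cluster 3, 407 CPM in cluster 4 and 495 CPM in cluster 7. The highest other class was Müller glia at 239 CPM, a value inside the interval of cluster 3 (214 to 280 CPM) and below those of clusters 4 and 7. Wnt5b, a secreted Wnt ligand, followed the same order with 66.7, 105 and 147 CPM, against 54.0 CPM in Müller glia and 39.9 CPM in rods. Gm30725, a long noncoding RNA at chr1:190106925-190177052 (GRCm39), was 51.2, 94.98 and 101 CPM, and its highest other class was cones at 45.6 CPM. In cluster 3 Wnt5b rested on 60 UMIs and Gm30725 on 46, and their intervals held the values of Müller glia and of cones. Clusters 4 and 7 did not differ beyond counting error in Wnt5b (log2 ratio 0.49, interval -0.10 to 1.09) or Gm30725 (0.08, -0.59 to 0.75).

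The remaining pair of markers set the clusters apart from other classes less well. Ttn encodes titin, the giant spring protein of striated muscle, and spans 278.8 kb at chr2:76534136-76812891 (GRCm39). It was 27.8 CPM in cluster 3, 75.5 CPM in cluster 4 and 71.1 CPM in cluster 7, but 116 CPM in RGCs, while no other class passed 22.5 CPM. G630064G18Rik, a long noncoding RNA, was 44.5, 56.0 and 41.7 CPM, and Müller glia (36.0 CPM) and amacrine cells (37.6 CPM) lay inside all of these intervals. Gpr179, Wnt5b, Gm30725, Ttn and G630064G18Rik each overlap a gene on the opposite strand, and the sources used here do not state whether strand was used in counting.

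The annotation was then checked against the full bipolar marker list. Among the 10 genes with the highest fold over all Cre- nuclei outside the cluster at 50 CPM or more, cluster 7 held 3 listed bipolar markers (Wnt5b, Trpm1 and Gpr179), cluster 4 held 1 (Trpm1) and cluster 3 held none. No leading gene of any of the clusters was a listed marker of another class. When a gene scored at most 1 per nucleus, these numbers were 2, 1 and none, with Ttn leading in cluster 4 (in 23 nuclei). Cluster 3 was led by genes outside the marker lists, with Pcgf3 first (133 of its 149 UMIs in 1 nucleus) and then Gm26549, Rexo2, AU041133 and Nfix, so it is called here by its number. Its log2 ratio over all Cre- nuclei outside cluster 3, those of clusters 4 and 7 included, was 1.05 for AU041133 and 1.03 for Nfix, which encodes a nuclear factor I protein.

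**Figure D2:**
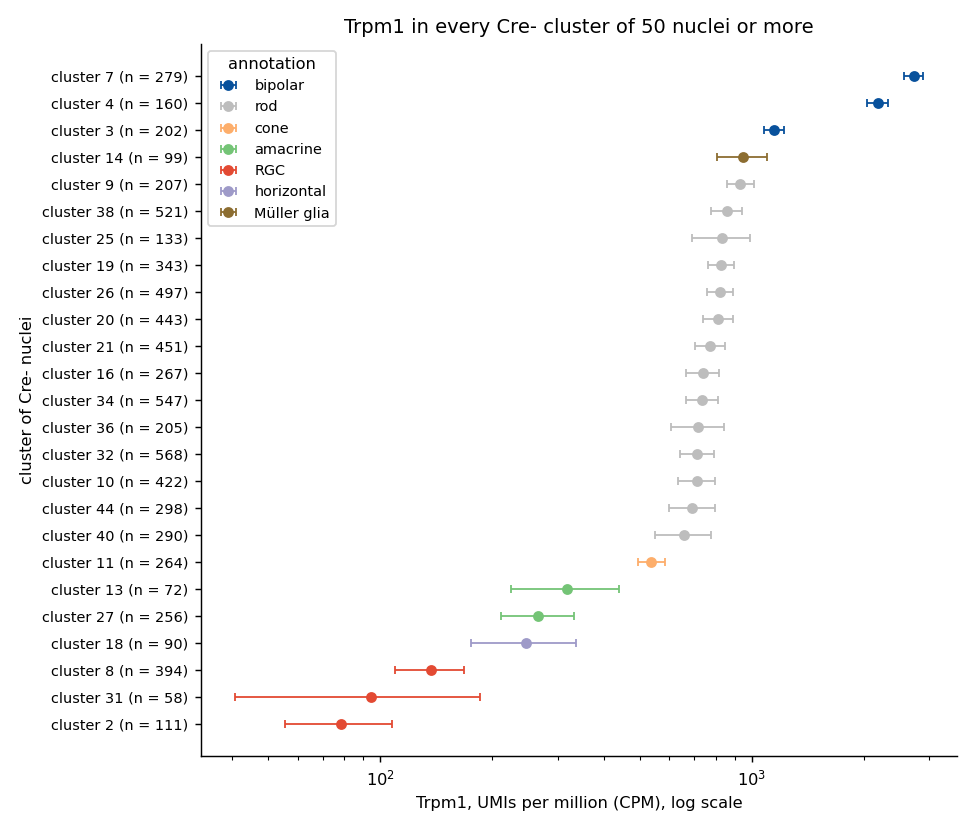
Trpm1 level in CPM (horizontal log axis) in each of the 25 Cre- clusters with 50 nuclei or more, coloured by annotation, with 95% intervals for counting error. Clusters 7, 4 and 3 are the top 3, and Müller glia cluster 14 follows at 945 CPM, with an interval that overlaps that of cluster 3.

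Across the 25 Cre- clusters with 50 nuclei or more, clusters 7 and 4 ranked 1 and 2 for Trpm1, Gpr179, Wnt5b, Grm6 and Prkca. Cluster 3 ranked 3 for Trpm1, Wnt5b and Prkca and 4 for Gpr179 and Isl1, but 8 for Grm6 and 14 for Otx2. Cluster 4 ranked 5 for Isl1, below cluster 3, and cluster 7 ranked 6 for Otx2, below 3 rod clusters. For Trpm1, Müller glia cluster 14 at 945 CPM and rod cluster 9 at 929.8 CPM came next. The interval of cluster 14 (806 to 1101 CPM) overlapped that of cluster 3, and that of cluster 9 (855 to 1010 CPM) lay below it. Cluster 3 thus ranked next after clusters 7 and 4 for Trpm1, Wnt5b and Prkca. Its levels of these genes lay nearer to the cluster ranked below it than to cluster 4. It stood below several rod clusters for Grm6 and Otx2. For the summed bipolar list it ranked 4 at 5183 CPM, below rod cluster 9 at 5248 CPM.

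In total, 92 of 10828 genes at 10 CPM or more were at least 2-fold higher in the pooled clusters than in the other Cre- nuclei (0.85%), and 336 (3.1%) were at least 2-fold lower. This balance depended on the scoring. Counting a gene at most 1 per nucleus gave 293 higher and 203 lower, drawing each nucleus to 500 UMIs gave 595 and 1036, and leaving out cluster 3 gave 318 and 650. Of the 25 bipolar markers, 5 were at least 2-fold higher and 24 lay above 0, where 45.8% of all genes did. The 5 were Wnt5b, Trpm1, Nyx, Gpr179 and Gm30725, and all but Nyx were among the markers given for these clusters, so the count is no independent evidence. The median log2 ratio of the list was 0.74, beside -0.05 over all genes. Lrit3, whose protein is needed to place TRPM1 at the dendritic tips, was the exception at 9.90 CPM against 12.3 CPM.

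Taken one by one against the other nuclei, the clusters differed in how much of the list stood out. In cluster 3 no bipolar marker of the 23 at 10 CPM or more was at least 2-fold higher or lower, where 1.32% of all genes were higher and 4.5% lower, and 15 lay above 0, where 47.6% of all genes did. In cluster 4, 12 of 25 were at least 2-fold higher and none lower, beside 4.27% and 9.29% of all genes, and 23 lay above 0, beside 45.6%. In cluster 7, 15 of 25 were higher and 1 lower, beside 4.97% and 9.37%, and 24 lay above 0, beside 47.2%. The list holds the 6 markers given for these clusters, so these counts are in part no independent evidence.

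A small set of genes stood well above every other class, and its size depended on the processing. In total, 17 of 10114 genes (0.168%) were at least 2-fold higher than the highest other class, and 895 (8.85%) lay above it at all. The 17 became 79 at 500 UMIs per nucleus, 64 in nuclei of matched depth and 56 without cluster 3, but 8 with scaling by median of ratios and 10 without cluster 7. Of the bipolar markers, 18 of 25 lay above every other class, among them 5 of the 6 markers given for these clusters. By the rule that named the 15 genes with the highest ratio at 50 CPM or more, these were led by Gm534, Trpm1 and Slc24a4. Gm534, a long noncoding RNA at chr14:49106736-49119339 (GRCm39), was 33.4, 65.8 and 85.8 CPM in clusters 3, 4 and 7 against 23.2 CPM in rods. It overlaps Otx2os1 and 4933429O19Rik on the opposite strand. Slc24a4, a potassium-dependent sodium-calcium exchanger, was 162, 346 and 294 CPM against 111 CPM in rods.

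The same rule named genes of several kinds. Gm20754 was 465, 852 and 878 CPM in clusters 3, 4 and 7 against 326 CPM in rods, and Gm38353 was 234, 468 and 473 CPM against 207 CPM in rods. Igsf21, an immunoglobulin-family adhesion protein of synapses, was 123, 166 and 257 CPM against 90.0 CPM in Müller glia. In all of these, cluster 3 was the lowest of the clusters. Slitrk3 and Lrfn2, both synaptic adhesion proteins, were highest in cluster 4 with 90.1 and 188 CPM. It also named 2 genes that rested on 1 nucleus. Pcgf3 had 165 UMIs in the clusters, of which 133 came from a single nucleus of cluster 3, and Prmt3 had 101 UMIs, of which 77 came from a single nucleus of cluster 4.

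At the other end, Sgk1, a stress- and steroid-induced kinase, was 29.1 CPM in the clusters against 51.2 CPM in rods, its lowest other class (log2 ratio -0.81). Msantd1, Csnk1g3, Sh3kbp1 and Cd47 were 40.8 to 44.2 CPM, below 50.1 to 60.1 CPM in their lowest other class.

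The mGluR6 cascade was read member by member. The receptor Grm6 was 271, 395 and 490 CPM in clusters 3, 4 and 7, against 247 CPM in both rods and cones. The interval of cluster 3 (238 to 308 CPM) held the rod and cone values, and those of clusters 4 and 7 lay above them. Nyx was 6.67, 14.6 and 22.1 CPM on 21 UMIs, against 4.39 CPM in the other nuclei (log2 ratio 1.48, interval 0.65 to 2.26). Gnao1, the Go α subunit, was 470.4, 626 and 647 CPM, but 612 CPM in Müller glia. Gnb3, the β subunit, was 272, 453 and 505 CPM, against 315 CPM in rods.

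Regulators of the cascade were often as high or higher in other classes. Rgs7 and Rgs11, the GTPase activators of Go, were 509 and 218 CPM in the pooled clusters against 389 and 179.7 CPM in other nuclei, yet Rgs7 reached 594 CPM in RGCs and Rgs11 reached 429.5 CPM in horizontal cells. Gnb5, their obligate partner and also a partner of photoreceptor RGS9, was 359.8 CPM against 537 CPM. Rgs9bp, the RGS9 anchor, was 65.2 CPM against 146 CPM, the only member at least 2-fold lower in the pooled clusters. Pcp2, a modulator of Go, was 117, 205 and 250.1 CPM against 156 CPM in rods. Of 16 members, 3 were at least 2-fold higher, beside 0.85% of all genes, and 7 lay above every other class, beside 8.85%. The 3 were Trpm1, Gpr179 and Nyx, and of these Trpm1 and Gpr179 were given as markers of these clusters. The median log2 ratio was 0.41, beside -0.05 over all genes and 0.42 for the listed amacrine markers. Taken alone, cluster 7 had 4 of 16 members at least 2-fold higher and 4 lower, beside 4.97% and 9.37% of all genes. Cluster 4 had 3 of 16 higher and 1 lower, beside 4.27% and 9.29%. Cluster 3 had none of 15 higher and 1 lower, beside 1.32% and 4.5%.

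Genes of bipolar subtypes were then read in each cluster. Prkca was 1571, 2548 and 2867 CPM in clusters 3, 4 and 7, against 1512 CPM in cones and 1289.8 CPM in rods. Its log2 ratio over all other nuclei was 0.87, but -0.42 when a gene scored at most 1 per nucleus. A single nucleus gave 64 of its UMIs, where the 152 nuclei of cluster 3 with 3000 UMIs or more alone held 1235. In nuclei with 1500 to under 3000 UMIs Prkca was 1607, 2234 and 2334 CPM, against 1389 CPM in cones and 1328 CPM in rods. At 500 UMIs per nucleus it was seen in 53.2% of pooled nuclei (interval 49.3% to 57.1%), against 43.0% of other nuclei. Of 7 rod bipolar genes, 6 were lowest in cluster 3 and 5 were highest in cluster 7. Of 12 genes of ON cone bipolar types, 8 were highest in cluster 7, among them Scgn at 56.4 CPM. Of 12 genes of OFF cone bipolar types, 6 were highest in cluster 4, among them Vsx1 at 21.9 CPM on 9 UMIs. Over all genes at 10 CPM or more, 36.3% were highest in cluster 7 and 31.2% in cluster 4, and 30.0%, 37.1% and 32.8% were lowest in clusters 3, 4 and 7. Grik1, the kainate receptor subunit of OFF bipolar cells, was 533, 750.1 and 765 CPM against 579.8 CPM in cones. Genes of rod bipolar and ON cone bipolar types were thus most often highest in the same cluster. The list counts took every member whatever its level, unlike the shares of all genes. The summed rod bipolar list was 2434 CPM in the pooled clusters against 1794 CPM in cones. The ON cone bipolar list was 1630 CPM against 1940 CPM in RGCs, and the OFF list 1776 CPM against 2200 CPM in cones, so neither was highest in the clusters.

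Among 24 transcription factors, 18 passed 10 CPM in the clusters or the other nuclei, 16 of them lay above 0, where 45.8% of all genes did, and the median log2 ratio was 0.47, beside -0.05. Otx2, shared with photoreceptors, was 182, 278 and 257 CPM against 266 CPM in cones. Isl1 was 248, 239 and 311 CPM against 199 CPM in cones, and did not differ beyond counting error between clusters 4 and 3. Lhx4 was 100.1, 146 and 177 CPM against 90.0 CPM in Müller glia. Nfix, at 119, 139 and 118 CPM, was the only listed factor at least 2-fold higher in the pooled clusters than in other nuclei (52.3 CPM), although Müller glia had 225 CPM. Taken alone, cluster 4 had 4 of 18 listed factors at least 2-fold higher and cluster 7 had 6 of 19, beside 4.27% and 4.97% of all genes. Outside this list, Prox1, a homeodomain factor listed here for horizontal cells, was 214, 295 and 414 CPM against 147 CPM in other nuclei and 689 CPM in horizontal cells.

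**Figure D3:**
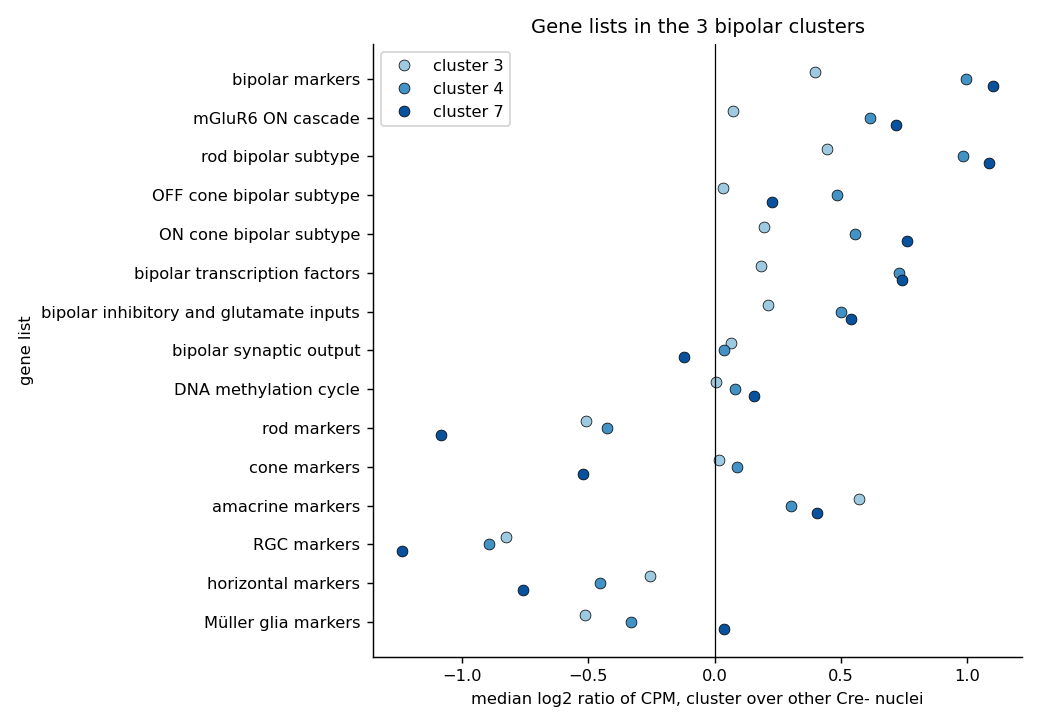
Median log2 ratio of CPM over the other Cre- nuclei (horizontal axis) for 15 gene lists in clusters 3, 4 and 7 (shades of blue), from 1 library and over members at 10 CPM or more. The bipolar marker list stands at 0.40, 1.00 and 1.10 in clusters 3, 4 and 7, and the rod list at -0.51, -0.43 and -1.08.

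The inputs and outputs of the bipolar terminal differed in how far they set the clusters apart. Of 18 receptor and chloride-transport genes for inhibitory and glutamate input, 15 lay above 0 in the pooled clusters, where 45.8% of all genes did, with a median log2 ratio of 0.30. None was at 2-fold in the pooled clusters, beside 0.85% of all genes higher, but 2 of 18 were in cluster 4 and 3 of 18 in cluster 7, beside 4.27% and 4.97%. Glra1, a glycine receptor subunit, was 130.1, 209.5 and 208 CPM against 117 CPM in Müller glia. Gabrr1 and Gabrr2, subunits of the GABA-C receptor that is typical of bipolar terminals, were 52.4 and 182 CPM in the pooled clusters against 29.8 and 123 CPM in other nuclei. Of 20 genes of the ribbon synapse and release machinery, 10 lay above 0, near the 45.8% of all genes, with a median of -0.01 beside -0.05 and none at 2-fold in the pooled clusters. Pclo and Cacna1d were 888 and 681 CPM against 596 and 449 CPM, whereas Vamp2 and Cplx4 were 58.8 and 159.5 CPM against 109.9 and 232 CPM. The other nuclei were mostly rods, which use ribbons too.

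Of the genes that write, read and erase DNA methylation, 12 of 16 passed 10 CPM, 7 lay above 0, near the 45.8% of all genes, and none was past 2-fold in the pooled clusters. Tet1, which oxidises 5-methylcytosine, was 86.7, 56.0 and 88.3 CPM in clusters 3, 4 and 7, against 45.0 CPM in other nuclei and 78.8 CPM in amacrine cells. The log2 ratio over other nuclei was 0.82 (interval 0.54 to 1.10). Tet2 and Tet3 were 109 and 189.8 CPM against 104 and 179 CPM, ratios whose intervals held 0. Dnmt3a, a de novo methyltransferase, was 582 CPM against 439 CPM and 621 CPM in amacrine cells. Uhrf1 had no UMI in 1717546, which allows up to 1.75 CPM.

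Because Ttn was a marker of the clusters, 22 genes of striated muscle were read, Ttn among them. As Ttn was given as a marker for these clusters, the counts below are in part no independent evidence. Of these, 6 passed 10 CPM, all above 0, where 45.8% of all genes were, and 1 was at least 2-fold higher in the pooled clusters, beside 0.85%. Taken alone, cluster 4 had 4 of 6 and cluster 7 had 5 of 7 at least 2-fold higher, beside 4.27% and 4.97% of all genes, and cluster 3 had none of 6. The gene past 2-fold in the pooled clusters was Myom1, which encodes the M-line protein myomesin, at 28.9, 58.5 and 66.2 CPM against 27.1 CPM in cones. Ryr2, a calcium release channel also used by neurons, was 599 CPM against 381 CPM, but 965 CPM in amacrine cells. The myosin heavy chains Myh1 and Myh2, and Mybpc2, had no UMI.

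The 3 clusters were then set against each other. Clusters 4 and 7 were close to one another for the bipolar list, and cluster 3 stood below both. At 10 CPM or more, 563 of 10914 genes (5.16%) were at least 2-fold higher in cluster 4 than in cluster 3 and 782 (7.17%) lower, and 7 of 25 bipolar markers were higher and none lower, with 23 above 0, where 48.3% of all genes were. In cluster 7 over cluster 3, 592 of 10895 genes (5.43%) were higher and 779 (7.15%) lower, and 11 bipolar markers were higher and 1 lower, with 23 above 0, where 49.2% of all genes were. In cluster 7 over cluster 4, 921 of 10690 genes (8.62%) were higher and 730 (6.83%) lower, and no bipolar marker was higher and 1 (Lrit3) was lower, with 18 above 0, where 53.7% of all genes were. The median log2 ratio of the list was 0.65, 0.95 and 0.21 in that order, with all-gene medians of -0.02, -0.01 and 0.01. Of the 25 markers, 22 were lowest in cluster 3, where 30.0% of all genes were, and 18 were highest in cluster 7, where 36.3% were. Trpm1 differed beyond counting error between all pairs, with log2 ratios of 0.93 (0.80 to 1.06) for cluster 4 over 3 and 0.32 (0.19 to 0.45) for cluster 7 over 4.

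The sums of rod, cone and amacrine genes did not follow this order, and the sum of RGC genes ran opposite to it. The summed rod list (12 genes) was 7177 CPM in cluster 3, 7384 CPM in cluster 4 and 5047 CPM in cluster 7, against 12479.6 CPM in rods and 2562 CPM in RGCs. All 12 rod genes were lowest in cluster 7, where 32.8% of all genes were. When a gene scored at most 1 per nucleus, the median log2 ratio of the rod list in cluster 7 over cluster 3 was 0.070 in place of -0.54. In nuclei with 1500 to under 3000 UMIs the summed rod list was 6563, 7784 and 4723 CPM in clusters 3, 4 and 7. Over all nuclei of the clusters, the summed cone list was 1673, 2151 and 1226 CPM. The summed RGC list (12 genes) was 679.5 CPM in cluster 3, 429 CPM in cluster 4 and 417 CPM in cluster 7, against 2389 CPM in RGCs. Of its 12 genes, whatever their level, 7 were highest in cluster 3, where 32.4% of all genes at 10 CPM or more were. The summed amacrine list was 1478, 1147 and 1327 CPM against 2474 CPM in amacrine cells and 1059 CPM in all other Cre- nuclei. All 10 amacrine genes at 10 CPM or more lay above 0 in the pooled clusters, where 45.8% of all genes did. Their median log2 ratio over other nuclei was 0.42, and 0.57 in cluster 3 alone, where that of the bipolar list was 0.40. The part of RNA from other cells in these values was not tested.

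The genes that most marked each cluster, by ratio over the higher of the other 2 at 50 CPM or more, carried this further. Cluster 3 was marked by Srgap1, a Slit-Robo GTPase-activating protein, at 175 CPM against 31.7 and 49.0 CPM in clusters 4 and 7. Rbpms, an RNA-binding protein used to mark RGCs, was 163 CPM against 48.7 and 41.7 CPM, beside 936 CPM in RGCs. Ptchd4 and the noncoding RNA Miat were 82.3 and 120.1 CPM. All 4 were highest of all classes in RGCs, with Srgap1 at 1034 CPM, Ptchd4 at 302 CPM and Miat at 596 CPM. Cluster 3 also had the most Meg3, a noncoding RNA abundant in RGCs, at 7188 CPM against 4306 and 4936 CPM, although at 1500 to under 3000 UMIs its intervals in cluster 3 (5371 to 6312 CPM) and cluster 7 (5123 to 5848 CPM) overlapped. Cluster 4 was marked by Rnf44, Hsf2 and Gm38250 at 51.1 to 73.1 CPM, and cluster 7 by Plcd1, Abcg4 and Cox19 at 54.0 to 71.1 CPM. The leading genes of those clusters by the same rule rested on 1 nucleus each. Slc13a4 had 28 of 29 UMIs in 1 nucleus of cluster 4, and Kif28 and Gm49470 had 27 of 29 and 20 of 21 UMIs in 1 nucleus of cluster 7.

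**Figure D4:**
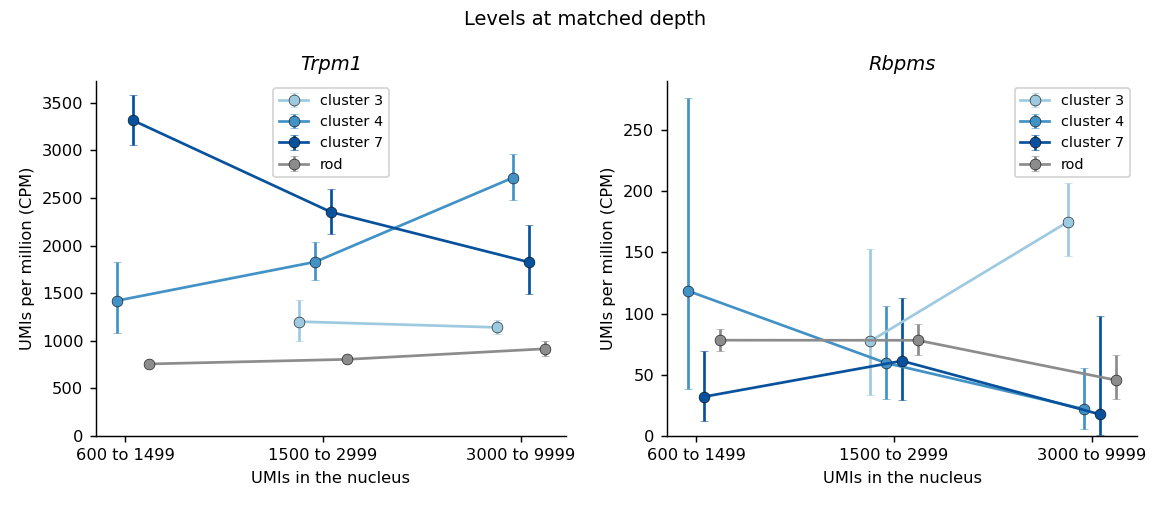
Trpm1 and Rbpms levels (CPM, vertical axes) in nuclei of 3 depth bands (horizontal axes, UMIs in the nucleus) for clusters 3, 4 and 7 and for rods, with 95% intervals for counting error in 1 library. From 1500 to under 3000 UMIs Trpm1 was 1200.2, 1828 and 2352 CPM in clusters 3, 4 and 7. Only 6 nuclei of cluster 3 had fewer than 1500 UMIs, and no level is drawn for them.

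The order of the clusters was read again at matched depth, in nuclei with 1500 to under 3000 UMIs. Trpm1 was 1200.2 CPM in 44 nuclei of cluster 3, 1828 CPM in 88 nuclei of cluster 4 and 2352 CPM in 80 nuclei of cluster 7, against 803 CPM in 1035 rods. The intervals of the clusters did not overlap, and all lay above that of rods. Within the clusters the course with depth was opposite. In cluster 7 Trpm1 was 3316 CPM in 187 nuclei below 1500 UMIs, 2352 CPM in the middle band and 1826 CPM in 12 nuclei with 3000 or more. In cluster 4 it was 1421, 1828 and 2714 CPM in 32, 88 and 40 nuclei. At 3000 UMIs or more cluster 4 therefore stood above cluster 7, with intervals of 2481 to 2963 and 1492 to 2212 CPM. In that band Trpm1 was 1140 CPM in 152 nuclei of cluster 3 and 914 CPM in 151 rods, with intervals that did not overlap. Gpr179 was 251 CPM in cluster 3 and 197 CPM in rods, and Grm6 was 256 and 315 CPM. The summed bipolar list was 5152 CPM in cluster 3, close to 5044 CPM in rods. Rbpms in cluster 3 was 77.4 CPM (8 UMIs) in the middle band, where it did not differ beyond counting error from clusters 4 and 7, and 175 CPM (138 UMIs) at 3000 UMIs or more. These 152 deepest nuclei held 138 of the 147 Rbpms UMIs of cluster 3, and 787874 of its 899171 UMIs in all.

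**Figure D5:**
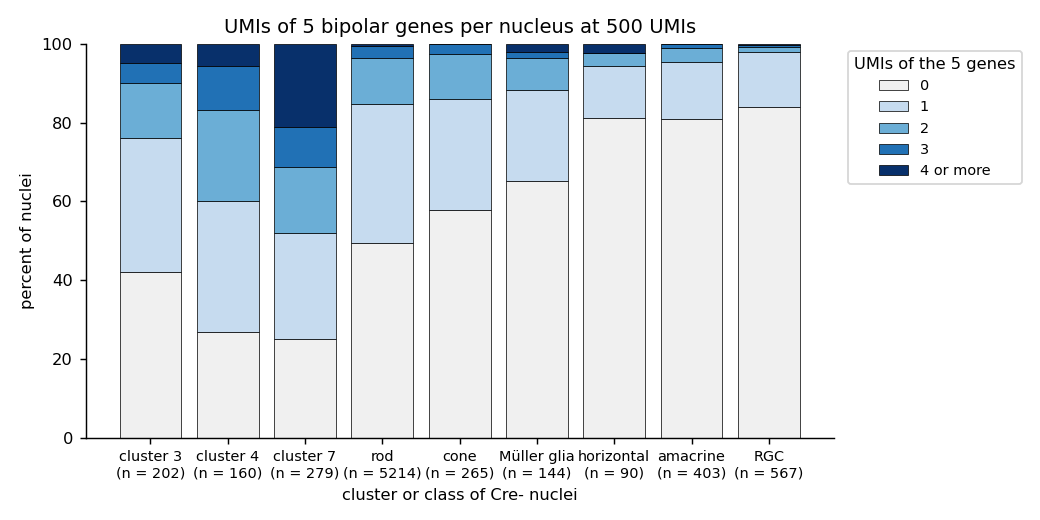
Share of nuclei (vertical axis, percent) with 0, 1, 2, 3 or 4 and more UMIs summed over Trpm1, Gpr179, Grm6, Isl1 and Wnt5b after each nucleus was drawn to 500 UMIs, by cluster and class of the Cre- library. Cluster 7 had 4 or more in 21.1% of its 279 nuclei, and rods in 0.518% of 5214.

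Single nuclei were then compared at 500 UMIs each, which left out none. Trpm1 was seen in 42.6% of nuclei of cluster 3 (interval 35.7% to 49.7%), 60.6% of cluster 4 and 60.2% of cluster 7. The share was 32.6% in rods and 6.17% in RGCs, neither of them bipolar cells, at median depths of 1025.5 and 1601 UMIs before drawing. Whether the Trpm1 UMIs of these classes came from RNA of other cells was not tested. Gpr179 was seen in 11.4%, 13.1% and 24.0% of nuclei, against 7.54% in rods and 1.59% in RGCs. Without drawing to equal depth the Trpm1 share of the pooled clusters was 84.9%, against 54.8% at 500 UMIs.

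Summed over Trpm1, Gpr179, Grm6, Isl1 and Wnt5b, cluster 7 was the most uneven. At 500 UMIs, 59 of its 279 nuclei had 4 or more UMIs of these genes and 70 had none. In cluster 4, 9 of 160 had 4 or more and 43 had none, and in cluster 3, 10 of 202 had 4 or more and 85 had none. Nuclei with 2 or more were 23.8% of cluster 3 (interval 18.1% to 30.2%), 40.0% of cluster 4 (32.3% to 48.0%) and 48.0% of cluster 7 (42.0% to 54.1%). They were 15.3% of rods, 14.0% of cones, 11.8% of Müller glia and 1.94% of RGCs. The interval of cluster 3 lay above that of rods (14.3% to 16.3%), and below those of clusters 4 and 7. It overlapped those of cones (10.0% to 18.7%) and Müller glia (7.03% to 18.2%).

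Markers of cells other than retinal neurons and Müller glia were low in 3 lists and higher in the vascular list. The summed levels in clusters 3, 4 and 7 were 36.8 to 53.6 CPM for 8 microglial genes, 17.2 to 36.5 CPM for 5 astrocyte genes and 14.6 to 27.0 CPM for 6 genes of the retinal pigment epithelium. C1qa, the microglial complement gene, had 1 UMI in all. The 7 vascular genes summed to 216 to 287 CPM, beside 214 CPM in the other Cre- nuclei, most of it from Flt1 and Pecam1, while Cldn5 and Cdh5 were 3.49 and 2.91 CPM. In these lists Best1 and Kcnj8 had no UMI.

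The 33 bipolar-annotated Cre- nuclei outside clusters 3, 4 and 7 held 47931 UMIs, too few for levels of single genes. Trpm1 was 793 CPM on 38 UMIs, a level that is not ranked against the clusters. The bipolar list summed to 5278 CPM, near cluster 3 at 5183 CPM, and the cone list to 5529 CPM, against 1681 CPM in the clusters and 2072 CPM in cones. The Tet tcKO library placed 1 nucleus in cluster 3, none in cluster 4 and 5 in cluster 7, where the Cre- library placed 202, 160 and 279. The 5 nuclei of cluster 7 had 39 Trpm1, 6 Gpr179, 7 Grm6 and 58 Prkca UMIs of 6737, and the single nucleus of cluster 3 had no Trpm1 UMI of 2796. With 1 library per genotype, the library and the genotype cannot be told apart, and no level is compared between them.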

How the data were processed

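Nuclei of whole P21 mouse retina were captured with the PIPseq T20 3' kit v4.0, and the authors processed reads with pipseeker 3.3.0 on GRCm39. The deposited values are whole UMI counts per gene and nucleus, made by the authors after removal of ambient RNA with CellBender and filters on transcripts and mitochondrial share per nucleus in Monocle3. Cluster numbers and cell types are the authors' annotation. The authors also deposited a mitochondrial percent per nucleus, a size factor that is a ratio of the nucleus total to a constant, and a mean normalized signal per gene and library. None of these 3 entered a level given here, and the last table was used for gene names.

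Counts were summed over nuclei and divided by the total (CPM). Intervals at 95% were exact Poisson for levels, exact conditional for log2 ratios and Clopper-Pearson for shares. Counts of genes past 2-fold took those that reached 10 CPM on at least 1 side, and a count of 0 was limited at 3 counts. The method was tested on simulated data. Named genes were the members of the gene lists, the 15 genes with the highest ratio over the highest other class at 50 CPM or more, the 5 with the lowest under the lowest other class, and the 5 per cluster with the highest ratio over the other clusters. Other genes named as leading a cluster come from the marker check, and Srgap1, Ptchd4 and Miat in RGCs were looked up after their levels in the clusters were seen. The markers and lists were chosen with earlier results of these data known. Whether the authors removed doublets is not stated in the methods or labels. Scrublet, run in scanpy 1.11.5, marked 0 of 7357 nuclei and so did not work as a caller, and its 502 highest scores (6.82%, ties included) were left out only as an alternative. Genes were placed by GENCODE on GRCm39, and promoter windows came from RefSeq on GRCm38.p6, with no coordinates carried between builds. Gm20754 was not placed. Some members of the lists are counted in them but not reported here one by one. Python 3.11.15, numpy 2.4.6, scipy 1.17.1, pandas 2.3.3 and matplotlib 3.10.9 were used.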

Additional observations from a re-analysis of the deposited data

How the results depend on the processing

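Of 540 values recomputed over 51 results, 445 stayed within the set margin (1.5 times for counts, the counting interval otherwise), 93 moved and 2 whose reported interval lay off 0 changed sign, while 534 kept their sign. Of the counts of genes 35 of 108 moved, of single genes 44 of 237, of list medians 8 of 189 and of shares 6 of 6, and the cause was not tested. Scoring a gene at most 1 per nucleus gave 293 genes higher and 203 lower over other nuclei (92 and 336 as reported), and 1332, 1702 and 1141 lower in cluster 4 over 3, 7 over 3 and 7 over 4 (782, 779 and 730). The same scoring turned the median of rod genes in cluster 7 over 3 from -0.54 to 0.070 and the ratio of Prkca over other nuclei from 0.87 to -0.42. It moved the medians of the mGluR6, output and input lists to 0.15, -0.20 and 0.10, and of rod genes in cluster 7 over 4 to -0.17. Nuclei drawn to 500 UMIs gave 595 and 1036 genes, 79 over the highest class (17 as reported), 1037 higher in cluster 7 over 3 (592) and an output median of 0.10. Over the highest class, scaling by median of ratios gave 8 genes, nuclei with 1000 UMIs or more 11, and leaving out cluster 7 gave 10. Without the highest doublet scores 1119 genes were lower in cluster 7 over 4. Without cluster 3 there were 318 higher, 650 lower and 56 over the highest class, with medians of 1.05 for bipolar markers and 0.67 for mGluR6 genes. Nuclei with 1500 to under 3000 UMIs, an alternative chosen after seeing the data, gave 479 and 870 genes, 64 over the highest class, 1170 and 1054 higher in clusters 4 and 7 over 3, 1134 lower in cluster 7 over 4, and an RGC median of -1.16. A filter of 1 CPM gave 1111 and 1260 genes, 129 over the highest class and 1190 lower in cluster 7 over 3. A filter of 50 CPM gave 20 and 93, 5 over the highest class, 43 and 69 in cluster 4 over 3, 75 and 75 in 7 over 3, and 100 and 84 in 7 over 4. Shares of nuclei with a UMI were 84.9% without drawing and 70.1% at 1000 UMIs for Trpm1, 52.4% and 31.3% for Gpr179, and 52.9% and 29.7% for Grm6, against 54.8%, 17.3% and 17.2% at 500. No paired analysis was possible because each genotype is 1 library.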
